A study of Mus musculus with 140 samples.

Results

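Arc and the Homer family are 4 mouse genes of the excitatory synapse: Arc, Homer1, Homer2 and Homer3. Arc is an immediate-early gene. Its mRNA is induced by neuronal activity and carried into dendrites, and its protein promotes the removal of AMPA receptors from the synapse. Homer proteins are postsynaptic scaffolds that hold group I metabotropic glutamate receptors, inositol trisphosphate receptors and Shank proteins together. The long Homer forms pair with each other through a coiled coil, whereas the short forms of Homer1 end early, lack that coil and are themselves activity-induced, so that they compete with the long forms for the same partners. m6A is a methylated adenosine in mRNA that lies mostly around stop codons and in 3′ UTRs, and TDP-43 is an RNA-binding protein of UG-rich sequence.

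The data were lists of clusters, stretches of RNA where sequencing reads pile up in an eCLIP immunoprecipitation (IP), each with its fold over the matched input and the p of that fold. A cluster was taken as a member when its midpoint lay on the same strand within 1 of the 4 genes. By that rule 5075 of the 13239113 listed clusters of the 70 IP libraries were theirs, in 4 of the 30657 genes with any cluster. Clusters with p of 0.001 or less over input are called enriched here, and the 4 genes held 1796 of 3579282 of them. Arc had 514 enriched clusters of 759 listed, Homer1 1057 of 2340, Homer2 118 of 1567 and Homer3 107 of 409.

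TDP-43 eCLIP and m6A eCLIP were each done in striatum and cortex of R6/2 mice, which carry a transgene of exon 1 of human mutant HTT, and of non-transgenic (NT) mice, all 3 months old, with 8 libraries per genotype from 4 males and 4 females. A separate m6A eCLIP experiment compared cortex of 3 male C57Bl/6J mice given 500 ug of an antisense oligonucleotide against TDP-43 (TDP-43 ASO) at 5 weeks of age with 3 given PBS, collected 2 weeks later. The sample labels of that experiment name cortex, but its treatment protocol names striatum, and the labels were followed. R6/2 is a transgene model and not a knock-in. Bulk tissue was used, so that fewer cells of a type and less RNA of a gene per cell cannot be told apart, and the files give no RNA level. Enriched clusters numbered 6769 to 24430 per R6/2 library and 4929 to 24127 per NT library in TDP-43 striatum, 15804 to 44115 and 28913 to 54932 in TDP-43 cortex, and 56405 to 86910 in the m6A libraries of either genotype and region. In TDP-43 striatum introns held 18.8 to 47.5% of the listed clusters of R6/2 libraries and 16.1 to 25.7% of those of NT libraries. The regions carried their markers: in NT mice, 8 of 8 tested medium spiny neuron genes had more TDP-43 clusters in striatum than in cortex and 10 of 10 had more m6A clusters.

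Numbers of enriched clusters per gene were scaled by each library's size factor and compared on the log2 scale with limma, sex as a covariate, with p adjusted over all genes tested. The plot of normalized cluster numbers by library shows all 4 genes in the 5 experiments.

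**Figure D1:**
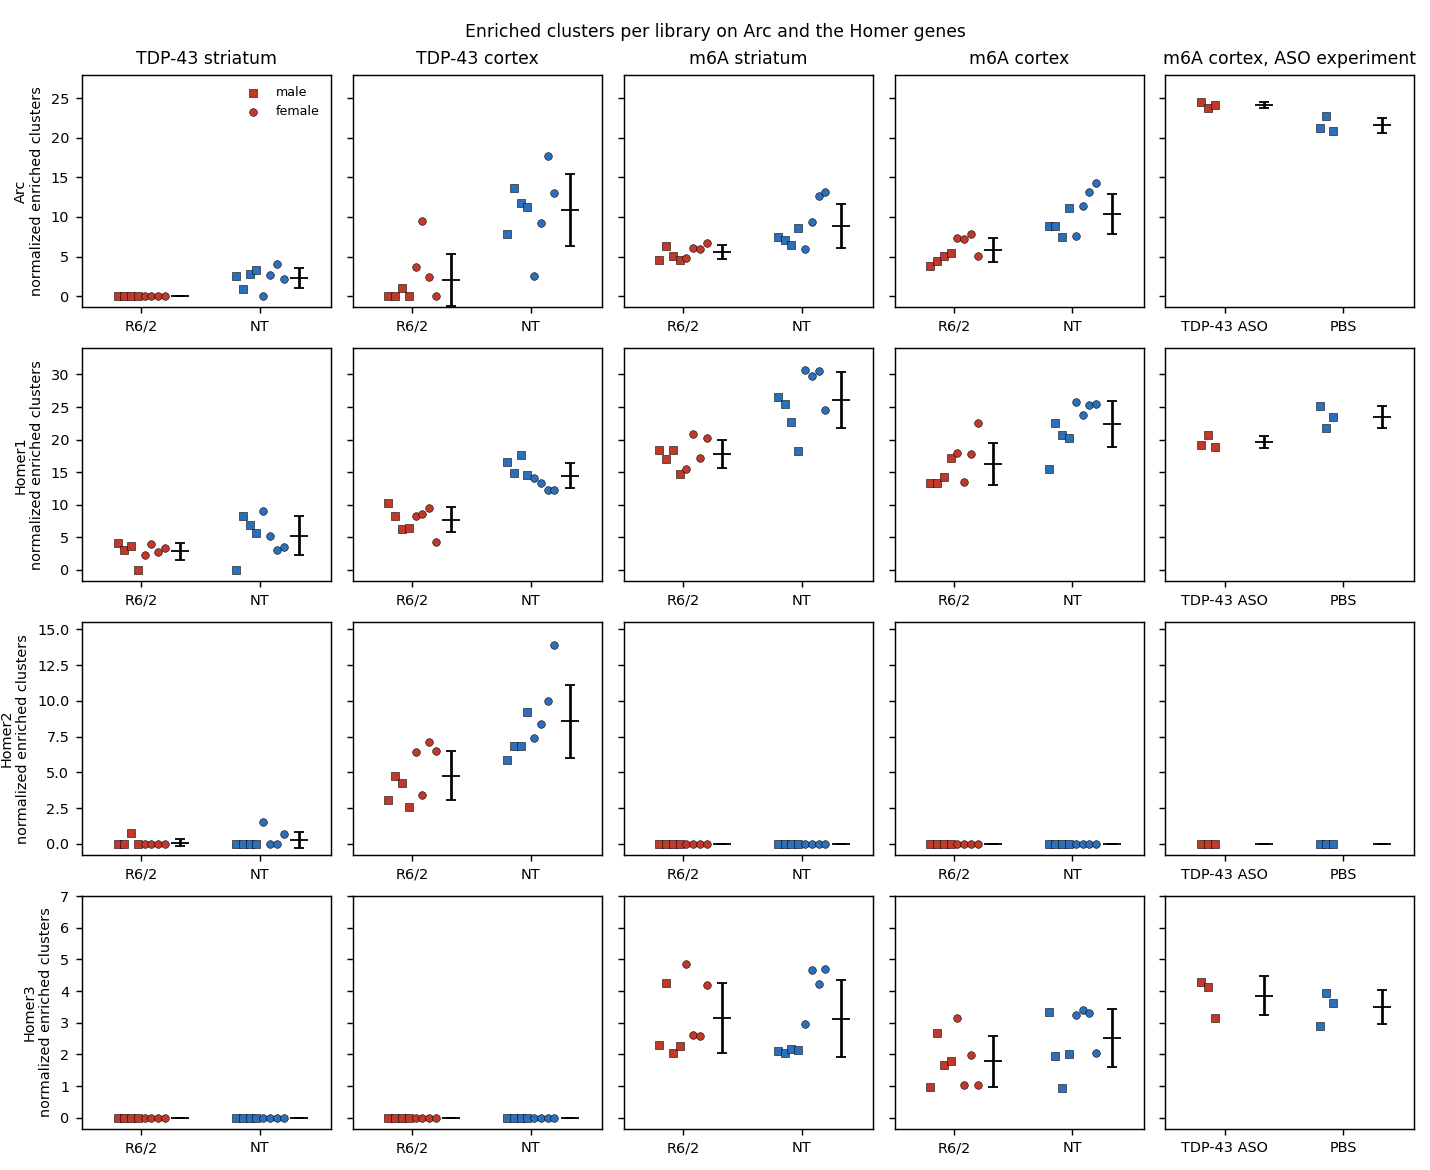
Normalized numbers of enriched clusters (y axis) for each gene (rows) in each experiment (columns); points are libraries (squares males, circles females) and bars show the mean and SD, with R6/2 or TDP-43 ASO left of NT or PBS. Arc had no enriched TDP-43 cluster in any R6/2 striatum, Homer2 had none in m6A libraries and Homer3 none in TDP-43 libraries.

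Arc lies on chromosome 15, 74669083 to 74672570, on the minus strand (mm10; ENSMUSG00000022602.14), and its spliced transcript of 3055 bases is coding from base 197 to base 1384. TDP-43 clusters on Arc were fewer in R6/2 mice in both regions. In TDP-43 cortex, R6/2 libraries had 0 to 11 enriched clusters with a median of 0.5, and NT libraries 3 to 17 with a median of 12. The groups overlapped only through R6/2 females: R6/2 males had 0, 0, 1 and 0 clusters and R6/2 females 4, 11, 3 and 0, whereas NT males had 8, 12, 12 and 17 and NT females 3, 11, 16 and 16. After scaling, the R6/2 mean was 2.07 ± 3.28 and the NT mean 10.9 ± 4.53 (SD, n = 8 each), a log2 difference of -2.92 (SE 0.57, limma adjusted p = 0.00412). With 4 R6/2 libraries at 0 its size depends on the 0.5 added, and with 2 added it was -1.86 (adjusted p = 0.00163). Of all 3737 genes tested in that comparison, 5.94% were called lower. At the study's stricter thresholds (log2 fold over 3 as well) the difference was -1.39 with adjusted p = 0.197, and among females alone -1.75 with adjusted p = 0.419. The difference of the R6/2 effect between females and males was 2.37 with adjusted p = 0.801, and 0.0% of genes were called in that test.

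In TDP-43 striatum, Arc had 0 enriched clusters in each of the 8 R6/2 libraries. NT libraries had 0 to 4, with a median of 3, and 1 NT library also had none. Arc lay below the filter of the fit across genes there. The normalized mean was 0 in R6/2 and 2.27 ± 1.31 in NT striatum, and the exact permutation test within sex gave p = 0.00204 (two-sided, 4900 labelings). That test was not planned, and its p was not adjusted over genes, unlike the p in cortex. Clusters were still listed on Arc, whatever their fold over input, and numbered 5 to 12 per R6/2 library and 8 to 14 per NT library. The count of 0 therefore means that no cluster reached the p threshold, and not that no read lay on Arc. The NT library without an enriched Arc cluster was a female of ordinary yield.

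The enriched TDP-43 clusters of Arc lay mostly in its coding sequence, 16 of 19 in R6/2 cortex and 64 of 95 in NT cortex, with 3 and 23 in the 3′ UTR. A site was defined as a stretch that enriched clusters of at least 4 of the 16 libraries of a table covered. In cortex, Arc had 14 TDP-43 sites, and each of the 14 was covered in fewer R6/2 than NT libraries, against 51.8% of all 37174 sites of that table. Since a site needed only 4 libraries of either genotype, most Arc sites were defined by NT libraries, and this tally restates the lower number of clusters. The best covered, chr15:74671651-74671801 in the coding sequence, was enriched in 4 R6/2 and 8 NT libraries, and its neighbour chr15:74671538-74671623 in 3 R6/2 and 8 NT libraries. In striatum Arc had 2 sites at almost the same places, each covered in 0 R6/2 and 5 NT libraries, and 51.5% of all 18561 sites were covered in fewer R6/2 than NT libraries. No single site passed the exact permutation test on presence after adjustment over all sites, where 0.0% of sites were called in any of the 4 tables; the lowest unadjusted p for Arc was 0.0143 in cortex. The middle of both coding sites is shown because they were the Arc sites enriched in all 8 NT libraries, and neither holds TGTGT, the UG-repeat letters on DNA:
Arc, chr15:74671712-74671740, minus strand: acagatcttcgaggacccacgggagttcc
Arc, chr15:74671566-74671594, minus strand: cggtgaagaactgggtggagttcaagaag

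Where a cluster was listed in both genotypes, its fold over input could be compared directly. At chr15:74671651-74671801 the log2 fold ranged from 0.93 to 3.43 with a median of 2.01 in R6/2 cortex, and from 2.08 to 3.41 with a median of 2.63 in NT cortex. The difference was -0.54 (SE 0.33, adjusted p = 0.509). Of the 6 Arc sites with such values in cortex 5 were lower in R6/2, between -0.80 and 0.39 on the log2 scale, and none passed limma's test, which called 0.27% of all sites in that table. The median difference over all sites tested was itself below 0, at -0.21 in TDP-43 cortex and -0.20 in TDP-43 striatum. In striatum both Arc sites were lower, by -0.97 (SE 0.39) and -0.88 (SE 0.38), with adjusted p of 0.258 and 0.299, where 0.829% of sites were called. The ranges of the genotypes overlapped at each of these sites.

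**Figure D2:**
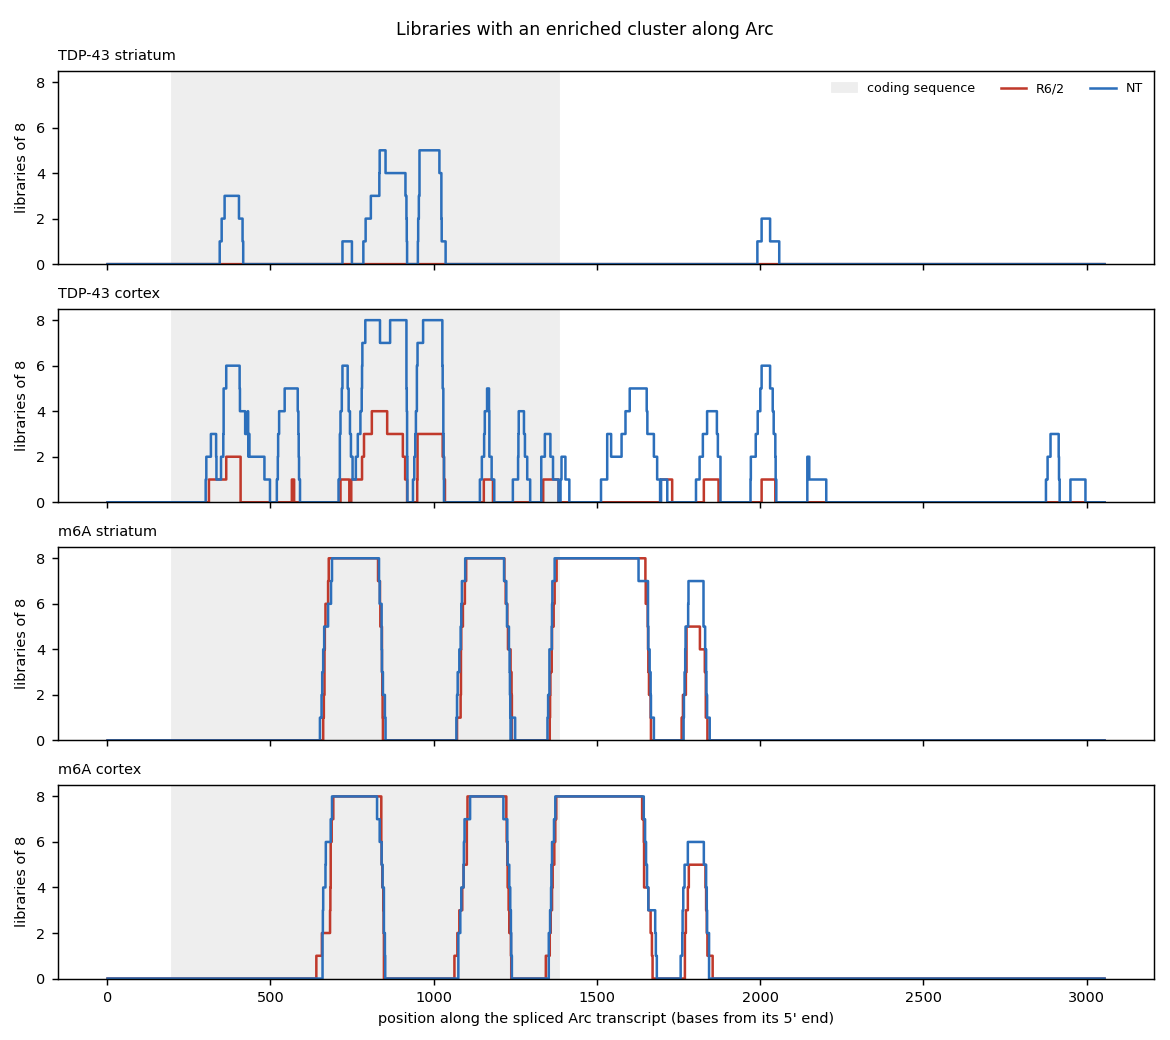
Number of libraries (of 8 per genotype) with an enriched cluster at each base of the spliced Arc transcript, counted from its 5′ end, for each assay and region; grey marks the coding sequence. TDP-43 peaks in NT cortex reached 8 libraries and in R6/2 cortex at most 4, while the 3 main m6A peaks reached 8 libraries in both genotypes.

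m6A clusters on Arc behaved differently along the transcript. Their number was lower in R6/2: 4 to 8 in R6/2 striatum with a median of 5.5, against 6 to 14 with a median of 7.5 in NT striatum, and 4 to 8 in R6/2 cortex with a median of 6, against 7 to 14 with a median of 9.5 in NT cortex. The log2 difference was -0.59 (SE 0.14, adjusted p = 0.0082) in striatum, where 5.84% of genes were called lower, and -0.79 (SE 0.13, adjusted p = 0.000754) in cortex, where 3.75% were. Yet the same stretches were marked in both genotypes. The 3 main sites, in the coding sequence at chr15:74671725-74671907 and chr15:74671334-74671495 and over the stop codon and the start of the 3′ UTR at chr15:74670905-74671214 (striatum coordinates), were enriched in all 16 libraries of each region, as were 47.4% of all m6A sites in striatum and 48.3% in cortex. The bases covered averaged 647 ± 28.7 in R6/2 striatum and 678 ± 30.5 in NT striatum, and 641 ± 21.1 in R6/2 cortex and 671 ± 57.0 in NT cortex. The median cluster was longer in R6/2, 111 bases in R6/2 striatum against 70.5 in NT striatum and 106 in R6/2 cortex against 64 in NT cortex. Fewer clusters in R6/2 thus covered nearly the same bases, and counted as bases the difference was -0.11 (adjusted p = 0.0619) in striatum and -0.13 (adjusted p = 0.184) in cortex. Log2 folds over input at the Arc sites differed between genotypes by -0.15 to 0.12 in striatum and by 0.02 to 0.24 in cortex, with no site called, where the test called 0.0916% and 0.0207% of all sites. The site over the start of the 3′ UTR holds the methylation motif letters GGACT, shown in capitals, in this stretch:
Arc, chr15:74670999-74671027, minus strand: accatgctacatGGACTgaacatcaagaa
GGACT, searched on the gene's strand, stood in the central 51 bases of 14.3% of all m6A sites in striatum and 14.4% in cortex, and in those of 0 of 16 and 2 of 14 member sites. Of all m6A sites, 16.1% in striatum and 13.7% in cortex were covered in fewer R6/2 than NT libraries, against 1 of 5 and 1 of 4 on Arc.

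Homer1 lies on chromosome 13, 93299635 to 93405129, on the plus strand (ENSMUSG00000007617.18). Sequence of 3 kinds was separated on it: the 3′ ends used only by short forms, the exons downstream used only by long forms, and the shared exons before them. The short forms end in 3 places. The first, chr13:93356080-93360462, runs on from the last shared coding exon, the arrangement of Homer1a. The second, chr13:93366243-93367134, is a separate terminal exon further into the same intron, the arrangement of the short form Ania-3. The third, chr13:93386381-93386744, held no listed cluster in any R6/2 or NT library. The long-form exons are chr13:93387524-93387680, chr13:93391691-93391801, chr13:93393028-93393108 and the last exon, chr13:93402041-93405129.

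The m6A cluster on the second short-form end was present in NT mice and absent from the lists in R6/2 mice. In striatum NT libraries had 1 to 6 enriched clusters there, with a median of 2, and every one of the 8 had at least 1. In cortex NT libraries had 0 to 4, with a median of 2, and 7 of 8 had at least 1. The 16 R6/2 libraries had 0 enriched clusters and also 0 listed clusters on any short-form end. No other m6A site of the 4 genes split the genotypes this way: in striatum 61 of all 40994 m6A sites, and in cortex 49 of 37895, were enriched in no R6/2 and in 7 or 8 NT libraries, and 1 of them in each region was this Homer1 site. The opposite pattern was held by 35 sites in striatum and 36 in cortex. The site's exact permutation p was 0.000408 in striatum, the smallest the design allows, with 0.356 after adjustment over all sites, and 0.00204 in cortex, with 0.639 after adjustment. Its log2 fold over input in NT mice was 3.04 to 4.05 (median 3.47) in striatum and 3.13 to 4.29 (median 3.78) in cortex. Its sequence is shown because no other m6A site of the 4 genes divided the genotypes, with the methylation motif letters in capitals:
Homer1, second short-form end, chr13:93366547-93366575, plus strand: gaaggaagagatGGACTtgggaaggctca

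m6A clusters on the long-form exons were seen in every library of both genotypes: 7 to 12 in R6/2 striatum (median 10) and 8 to 13 in NT striatum (median 10.5), 4 to 11 in R6/2 cortex (median 7.5) and 6 to 11 in NT cortex (median 9.5). The groups overlapped throughout. The log2 ratio of short-form to long-form clusters, with 0.5 added to each, was -4.29 ± 0.24 in R6/2 striatum and -2.07 ± 0.64 in NT striatum (SD, n = 8 each), a difference of -2.22 (exact permutation p = 0.000408, adjusted over 5 comparisons 0.00204). In cortex it was -3.96 ± 0.46 in R6/2 and -2.33 ± 0.97 in NT mice, a difference of -1.63 (exact permutation p = 0.00286, adjusted 0.00714). On the first end, that of Homer1a, neither genotype had an enriched m6A cluster, so that the ratio rests on the second end. The second short-form end was thus lower in R6/2 relative to the long-form exons of the same gene in the same libraries. No cluster was even listed there in R6/2 mice, so that less short-form RNA and less m6A on it cannot be told apart. Since the R6/2 value has no short-form cluster, the size of the ratio depends on the number added, and with 2 added it was -0.94 and -0.58, with adjusted p of 0.00204 and 0.0497.

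**Figure D3:**
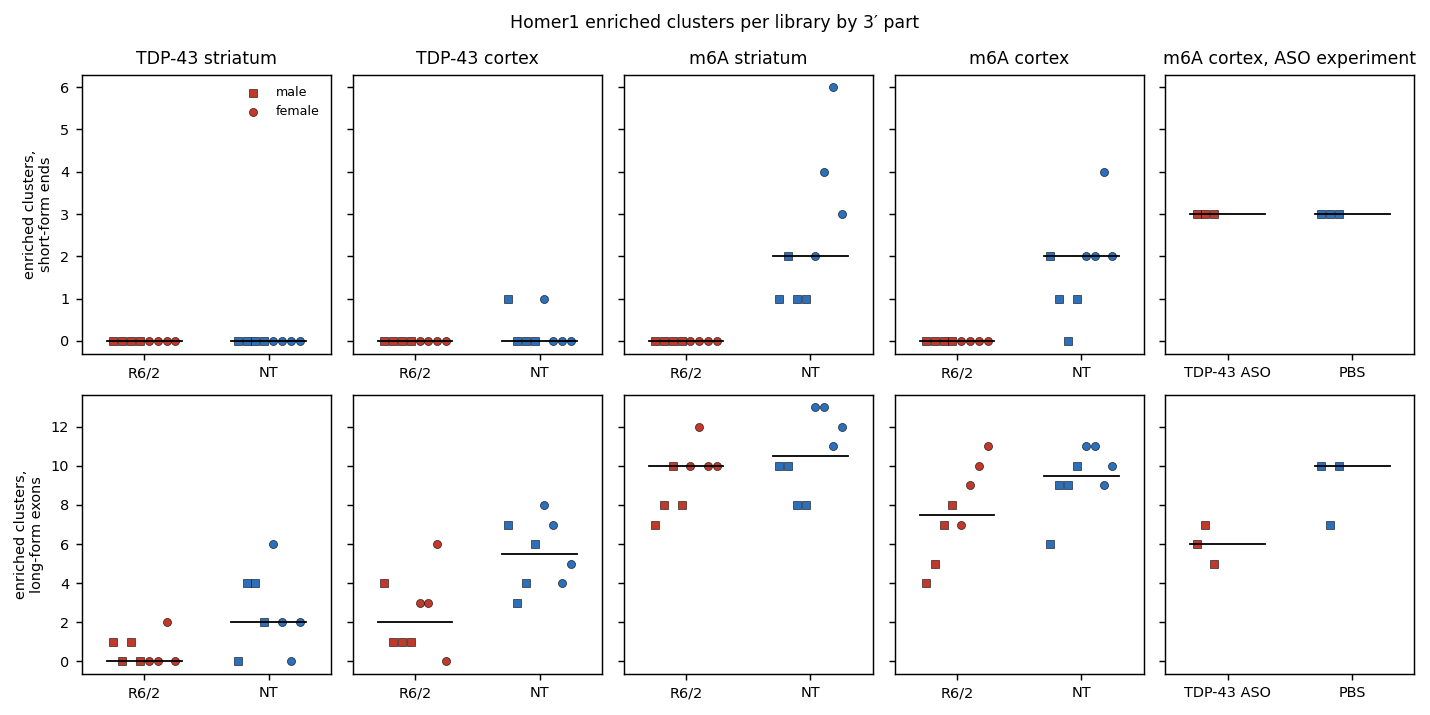
Enriched clusters per library on the short-form ends (top) and long-form exons (bottom) of Homer1 in the 5 experiments, with R6/2 or TDP-43 ASO left of NT or PBS; squares are males, circles females and lines medians. In m6A libraries the short-form ends had 0 clusters in all R6/2 mice and up to 6 in NT mice, while the long-form exons overlapped between genotypes.

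Over the whole gene, Homer1 had fewer enriched m6A clusters in R6/2 mice: 13 to 24 in R6/2 striatum (median 17) against 17 to 32 in NT striatum (median 25.5), and 13 to 22 in R6/2 cortex (median 17) against 14 to 25 in NT cortex (median 22.5). The log2 difference was -0.53 (SE 0.09, adjusted p = 0.000505) in striatum and -0.46 (SE 0.10, adjusted p = 0.00451) in cortex. The shared exons had 72 clusters in all in R6/2 striatum against 101 in NT striatum, and 74 in R6/2 cortex against 83 in NT cortex. The bases covered over the whole gene averaged 1212 ± 56.9 in R6/2 striatum and 1358 ± 83.6 in NT striatum. In cortex they averaged 1129 ± 87.5 in R6/2 and 1318 ± 74.0 in NT mice. The median cluster was longer in R6/2, 56 bases against 42 in striatum and 51 against 46 in cortex. The number of clusters thus fell by a larger share than the bases they covered. As on Arc, the standing sites were kept: 5 Homer1 sites, 3 in the 5′ UTR and 2 in the last exon, were enriched in all 16 libraries of each region. The strongest, near the end of the first exon at chr13:93304989-93305254, had a log2 fold of 3.35 in R6/2 and 3.55 in NT striatum (difference -0.20, SE 0.12, adjusted p = 0.677). Differences at the Homer1 sites spanned -0.20 to 0.13 in striatum and -0.18 to 0.07 in cortex, none called. The last-exon site is shown as the standing counterpart of the short-form one:
Homer1, last long-form exon, chr13:93403240-93403268, plus strand: gtcaagccgagaGGACTgcatctaaattg

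TDP-43 lay mostly in the 5′ UTR and coding exons of Homer1. In cortex, 32 of 61 enriched clusters of R6/2 libraries and 61 of 129 of NT libraries were in the 5′ UTR, and nearly all others in coding exons. R6/2 cortex had 2 to 12 enriched clusters per library (median 8) and NT cortex 11 to 22 (median 16.5). After scaling all 8 R6/2 libraries lay below every NT library, a separation for which the share over all genes is not given here. The normalized means were 7.74 ± 1.92 and 14.4 ± 1.93 and the log2 difference -0.89 (SE 0.15, adjusted p = 0.00161). Of all genes tested in TDP-43 cortex, 5.94% were called lower. The 5′ UTR site chr13:93304183-93304626 was enriched in all 16 cortex libraries, with a mean log2 fold of 3.24 in R6/2 and 2.87 in NT cortex (difference 0.36, SE 0.37, adjusted p = 0.723). In contrast, a site at the end of the first long-form exon, chr13:93387653-93387676, was enriched in 0 R6/2 and 6 NT libraries (exact permutation p = 0.0102, adjusted 0.901). Of the 10 Homer1 sites 9 were covered in fewer R6/2 libraries, against 51.8% of all sites of that table. As on Arc, this tally in part restates the lower number of clusters. The long-form site had the lowest fold difference of any member site, -1.07 (SE 0.38, adjusted p = 0.224), with 1.59 to 2.78 in the 6 R6/2 libraries that listed it and 1.39 to 3.89 in the 8 NT libraries. At the study's thresholds the Homer1 difference in cortex was -0.13 (adjusted p = 0.894), and in all listed clusters -0.42 (adjusted p = 0.0569). In TDP-43 striatum R6/2 libraries had 0 to 5 enriched clusters (median 3) and NT libraries 0 to 12 (median 6.5). The log2 difference of -0.63 (SE 0.56) did not pass (adjusted p = 0.534), and without the 3 libraries under 10000 enriched clusters, of which 2 had no Homer1 cluster, it was -0.80 (adjusted p = 0.0192). Of all genes tested, 7.97% were called lower in TDP-43 striatum.
Homer1, 5′ UTR, in all cortex libraries, chr13:93304391-93304419, plus strand: aggggaccgcgcggggttgggttctctga
Homer1, first long-form exon, in no R6/2 library, chr13:93387651-93387679, plus strand: caggaggaagcagagcggctgcacaagcg
Homer1, second long-form exon, in 5 R6/2 and 8 NT libraries, chr13:93391694-93391722, plus strand: actgagctggagTGTGTtagtagtcaagc
These are the Homer1 sites that stayed, that was enriched in no R6/2 library and that holds TGTGT (capitals), in that order.

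The first short-form end, that of Homer1a, had almost no enriched TDP-43 cluster, 0 in R6/2 and 2 in NT cortex, but listed clusters lay there. In cortex, R6/2 libraries had 0 or 1 listed TDP-43 cluster on it, 2 in all, and NT libraries 3 to 13, 46 in all. In striatum R6/2 libraries had 0 or 1, 2 in all, and NT libraries 0 to 5, 23 in all. The second short-form end had 8 listed clusters in R6/2 and 13 in NT cortex, but 12 in R6/2 and 8 in NT striatum. The long-form exons had 85 listed clusters in R6/2 cortex and 79 in NT cortex. Over all short-form ends together, the listed short-to-long ratio was lower in R6/2 cortex by 2.45 on the log2 scale (exact permutation adjusted p = 0.00204). In striatum, where the first and second ends went opposite ways, it was lower by 0.58 (adjusted p = 0.187). These listed clusters did not reach the p threshold over input except in the 2 NT cases, and reads on the RNA and binding cannot be told apart in their number. With enriched clusters only, the ratio was 0.97 higher in R6/2 cortex and 1.44 higher in R6/2 striatum (adjusted p = 0.0709 for each), a value set by the long-form exons, since the short-form ends were at 0 in nearly all libraries.

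**Figure D4:**
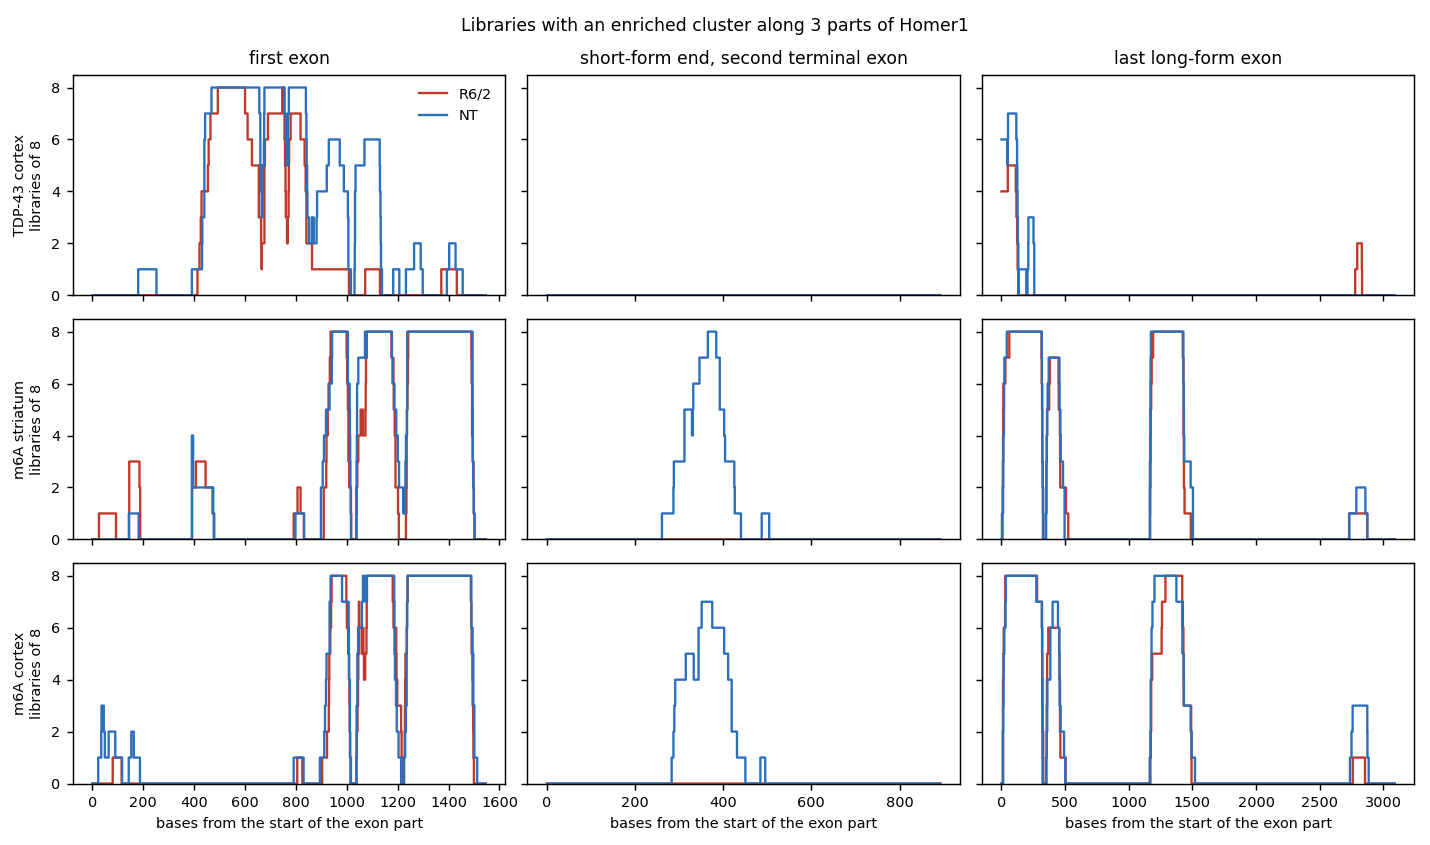
Number of libraries (of 8 per genotype) with an enriched cluster along the first exon, the second short-form terminal exon and the last long-form exon of Homer1, in bases from the start of each part, for TDP-43 cortex and m6A striatum and cortex (rows). In m6A libraries R6/2 followed NT in the first and last exons and stayed at 0 on the short-form exon, where NT reached 8 libraries in striatum and 7 in cortex.

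Homer2 (chromosome 7, 81600481 to 81707527, minus strand, ENSMUSG00000025813.14) carried TDP-43 and no detected m6A. Its m6A clusters, 261 listed in striatum, 342 in cortex and 180 in the ASO experiment, were at no point enriched over input. In TDP-43 cortex, R6/2 libraries had 2 to 9 enriched clusters (median 4) and NT libraries 6 to 17 (median 9). After scaling 5 of 8 R6/2 libraries lay below every NT library, with means of 4.75 ± 1.72 and 8.56 ± 2.55. The log2 difference was -0.81 (SE 0.18, adjusted p = 0.0124), where 5.94% of all genes were called lower. Listed clusters were alike in number, 227 in R6/2 and 230 in NT cortex, with a log2 difference of -0.12 (adjusted p = 0.431). All 10 Homer2 sites had a lower fold over input in R6/2 cortex, by -0.80 to -0.12 on the log2 scale (median -0.51, against -0.21 over all sites of the table), but none was called, with the lowest adjusted p at 0.407. The sites were in the 3′ UTR (6), coding exons (3) and the 5′ UTR (1). The 5′ UTR site was enriched in 3 R6/2 and 8 NT libraries, with log2 folds of 1.98 to 4.40 in R6/2 and 2.60 to 4.64 in NT cortex. A TGTGT run, in capitals, lies in 2 of the 3′ UTR sites, on the gene's strand and with repeats overlapping, and in none of the central 51 bases of Arc or Homer1 sites, against 7.34% of all TDP-43 sites in cortex and 7.17% in striatum:
Homer2, in 7 R6/2 and 8 NT libraries, chr7:81610220-81610248, minus strand: gggcggagcaagTGTGTGTgagaggtgtg
Homer2, in 1 R6/2 and 3 NT libraries, chr7:81605965-81605993, minus strand: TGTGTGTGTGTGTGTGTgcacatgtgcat
In TDP-43 striatum Homer2 had 1 enriched cluster in all R6/2 libraries and 3 in all NT libraries.

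**Figure D5:**
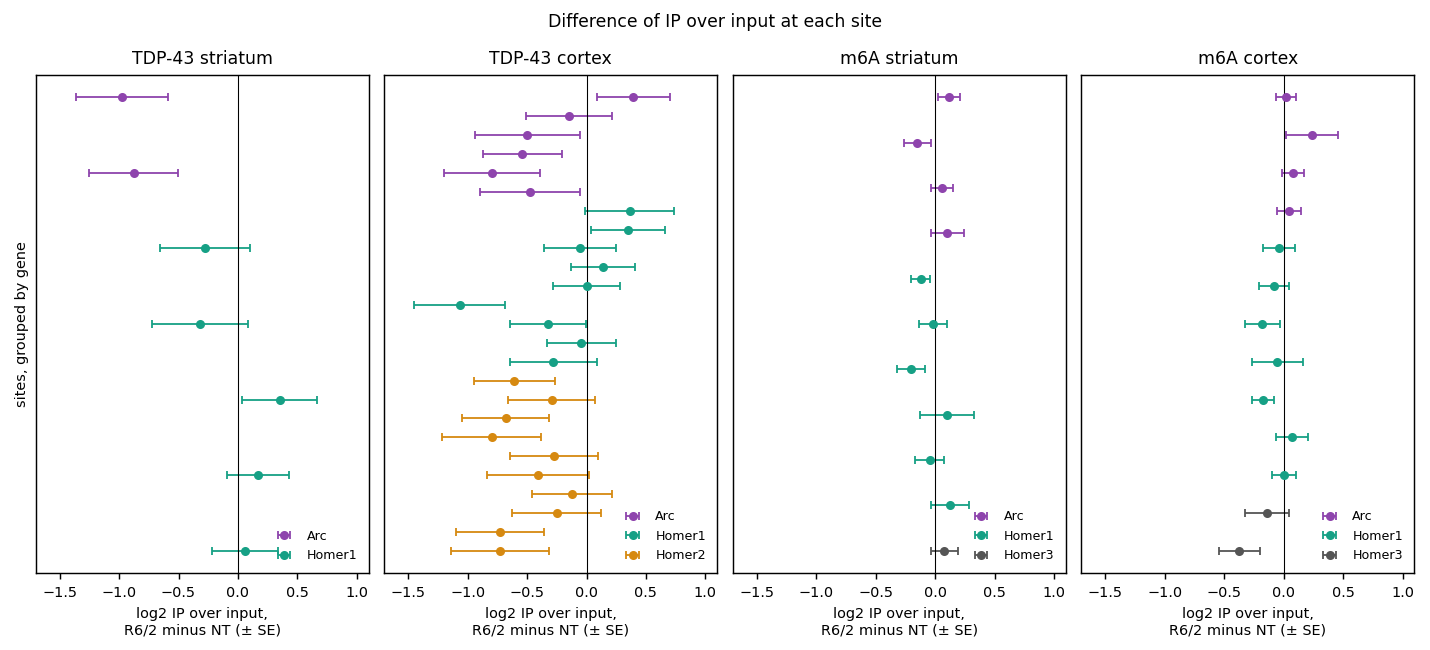
Difference of log2 IP over input between R6/2 and NT libraries (x axis, with SE) at each site of the 4 genes where at least 5 libraries per genotype listed a cluster. Homer2 sites in TDP-43 cortex lie left of 0, and m6A sites lie between -0.37 and 0.24; no site passed the test.

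Homer3 (chromosome 8, 70282827 to 70294361, plus strand, ENSMUSG00000003573.15) was the reverse of Homer2, with m6A and no enriched TDP-43 cluster in any library. Its enriched m6A clusters all lay in the 3′ UTR. R6/2 striatum had 2 to 5 per library (median 3) and NT striatum 2 to 5 (median 2.5), a log2 difference of 0.02 (SE 0.18, adjusted p = 0.972). R6/2 cortex had 1 to 3 (median 2) and NT cortex 1 to 3 (median 2.5), a difference of -0.41 (SE 0.24, adjusted p = 0.35). The main site was enriched in all 16 libraries of each region, and the groups overlapped fully.

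Some places carried both marks. In cortex 6 of the 14 TDP-43 sites of Arc overlapped an m6A site by at least 1 base, and all 4 m6A sites overlapped a TDP-43 site, while on Homer1 it was 3 of 10 TDP-43 and 3 of 8 m6A sites. In striatum 1 of 2 TDP-43 and 1 of 5 m6A sites of Arc overlapped, and 3 of 5 and 2 of 9 on Homer1. These are counts of places, and they do not show the 2 marks on the same molecule.

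Between regions, NT striatum had fewer TDP-43 clusters than NT cortex on Homer2 by -3.33 on the log2 scale (SE 0.32, adjusted p = 1.1e-09) and on Arc by -1.51 (SE 0.51, adjusted p = 0.0169), while the Homer1 difference of -1.08 (SE 0.47) had adjusted p = 0.0582. Homer2 was at 0 in 6 of 8 NT striatum libraries, so that the size of its difference depends on the 0.5 added. The median of all genes in that comparison was -0.63, and 46.5% of genes were called. m6A differed less between NT striatum and NT cortex, with -0.36 for Arc (adjusted p = 0.0612), 0.08 for Homer1 and 0.15 for Homer3, where 19.7% of genes were called. A difference of the R6/2 effect between regions was not detected where it could be tested. In TDP-43, striatum minus cortex was 0.20 (SE 0.72) for Arc, 0.30 (SE 0.66) for Homer1 and 0.59 (SE 0.45) for Homer2, with adjusted p of 0.739 or more. In m6A it was 0.21 (SE 0.19), -0.06 (SE 0.13) and 0.44 (SE 0.31) for Arc, Homer1 and Homer3, with adjusted p of 0.808 or more. Arc and Homer2 had few or no enriched TDP-43 clusters in striatum, so that their values depend on the 0.5 added. The test called 0.0689% of genes in TDP-43 and 0.254% in m6A.

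After TDP-43 ASO in C57Bl/6J cortex, the second short-form end of Homer1 kept its m6A. Each of the 3 TDP-43 ASO and 3 PBS libraries had 3 enriched clusters there. On the long-form exons TDP-43 ASO libraries had 6, 7 and 5 enriched clusters and PBS libraries 10, 7 and 10, and the short-to-long ratio was 0.54 higher after ASO (exact permutation p = 0.2, where 0.1 is the smallest that 3 against 3 allows). Homer1 as a whole had 18, 20 and 18 clusters after TDP-43 ASO and 26, 22 and 26 after PBS, a log2 difference of -0.25 (SE 0.06, adjusted p = 0.0315). Arc had 23, 23 and 23 after TDP-43 ASO and 22, 23 and 23 after PBS, with a difference of 0.16 after scaling (SE 0.04, adjusted p = 0.0317), while the raw sums were 69 and 68. Both calls depended on single libraries: with 1 left out, the adjusted p reached 0.125 for Arc and 0.0797 for Homer1. Homer3 had 4, 4 and 3 after TDP-43 ASO and 3, 4 and 4 after PBS (0.13, adjusted p = 0.59). In this experiment 30.5% of genes were called, and 97.8% of listed intervals were the same in the 3 libraries of a treatment, against 0.0641% among 3 NT striatum m6A libraries. The lists of 1 treatment thus shared their intervals, and these p-values measure how the shared intervals passed the threshold in each library.

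Genes that work with Arc and Homer were read from lists. Among 15 tested Homer ligands and partners, 6 were lower and none higher in R6/2 striatum m6A, with a list median of -0.33 against 0.02 over all genes. The ryanodine receptor gene Ryr1, a calcium release channel, had 1 to 4 enriched m6A clusters in R6/2 striatum and 5 to 8 in NT striatum (log2 difference -1.44, adjusted p = 1.2e-05). Shank3, a scaffold bound by Homer, had 14 to 24 against 23 to 31 (-0.61, adjusted p = 2.76e-05), and Ryr3 13 to 21 against 19 to 26 (-0.50, adjusted p = 0.000509). In R6/2 cortex m6A 1 of 16 was lower, Shank1 (-0.25, adjusted p = 0.0168). In TDP-43 libraries 3 of 11 were lower in R6/2 striatum, Ryr1, Grm5 and Itpr1, and Ryr1 and Grm5 were also lower in R6/2 cortex. Grm5, the main group I metabotropic glutamate receptor of striatum, had 0 to 9 TDP-43 clusters in R6/2 and 3 to 13 in NT striatum (-1.64, adjusted p = 0.0057), and 1 to 9 against 9 to 15 in cortex (-0.86, adjusted p = 0.0184). Of the Arc partners, 4 of 7 were lower in TDP-43 striatum, 1 of 8 in TDP-43 cortex, 2 of 12 in m6A striatum and 1 of 11 in m6A cortex, among them the NMDA receptor subunit gene Grin2a (TDP-43 striatum -0.82, cortex -0.54) and the kinase gene Camk2b (m6A striatum -0.47, cortex -0.34). Over all genes 7.97%, 5.94%, 5.84% and 3.75% were called lower in these tables, so that a single call in a list of this size is near the background. After TDP-43 ASO, where 30.5% of all genes were called, 2 Homer partners were higher and 3 lower of 16, 5 Arc partners higher and 1 lower of 11, 4 effector genes higher and 2 lower of 19, 5 transcription factor genes higher and 2 lower of 14, and 1 regulator of Arc higher and 2 lower of 7. The R6/2 effect on m6A of Shank3 was lower in striatum than in cortex by -0.57 (adjusted p = 0.0276).

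Some other activity-induced genes also had fewer m6A clusters. In R6/2 striatum 9 of 16 tested effector genes and 5 of 11 transcription factor genes were lower and none higher, with list medians of -0.41 and -0.37, and in R6/2 cortex 3 of 15 and 4 of 12, with medians of -0.30 and -0.30 against 0.02 over all genes. Over all genes 5.84% were called lower in m6A striatum and 3.75% in m6A cortex. The zinc finger gene Egr2 had 0 to 4 enriched m6A clusters in R6/2 striatum and 4 to 13 in NT striatum (-2.11, adjusted p = 7.5e-05) and Inhba, an activin subunit gene, 3 to 6 against 8 to 15 (-1.07, adjusted p = 2.1e-05). Egr3 and Npas4, further activity-induced transcription factor genes, were lower in both regions by 0.38 to 0.66. In TDP-43 libraries few were measured: Egr3 was the 1 tested of the transcription factor genes in striatum and was lower (-2.22, adjusted p = 0.00104), and in cortex 1 of 4 was, Egr3 (-1.89, adjusted p = 0.0325), with 1 of 8 effector genes, Btg2 (-1.95, adjusted p = 0.0295). Over all genes 7.97% were called lower in TDP-43 striatum and 5.94% in TDP-43 cortex, so that single calls in lists this short are near the background. Of the regulators of Arc transcription, none was called in TDP-43 libraries or m6A cortex of R6/2 mice, and 1 of 6 was higher in m6A striatum, the transcription factor gene Mef2c (1.12, adjusted p = 0.0275). Mef2c had few clusters there, 2 to 5 in R6/2 and 0 to 6 in NT libraries, and the groups overlapped. Of all 9476 genes tested in m6A striatum 915 were called, 553 of them lower, so that 1 call in 6 is near the background. Over the 32 m6A libraries of R6/2 and NT mice, the genes whose log2 cluster numbers followed Arc most closely of 5667 compared were Dusp1 (Pearson r 0.81), Egr1 (0.78) and Nr4a1 (0.77), and Homer1 followed it with r 0.62. Those nearest Homer1 were Ntrk3 (0.78), Tyro3 (0.76) and Pdp1 (0.76). These correlations hold the shared differences between genotypes, regions and sexes; within group and sex they were 0.53, 0.23 and 0.71 for the genes near Arc, and -0.14 between Arc and Homer1. In TDP-43 libraries Inpp4a (0.91), Tnks2 (0.89) and Tenm4 (0.89) were nearest Homer1, and Arc had too few clusters to be compared.

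Markers of medium spiny neurons moved with genotype in the same libraries. Their summed normalized clusters were 168 to 196 in R6/2 and 241 to 300 in NT m6A striatum, 66.9 to 90.2 in R6/2 and 97.7 to 113 in NT m6A cortex, 44.6 to 65.5 in R6/2 and 82.6 to 158 in NT TDP-43 striatum and 7.11 to 14.2 in R6/2 and 18.5 to 33.9 in NT TDP-43 cortex, with no overlap of the genotypes in any of the 4. In m6A striatum 10 of 12 of these markers were called lower in R6/2, against 5.84% of all genes. Astrocyte markers also stood apart in m6A striatum, with sums of 84.1 to 95.1 in R6/2 and 96.3 to 110 in NT mice and 2 of 5 called lower, and overlapped in m6A cortex, with 74.6 to 91.8 in R6/2 and 85.9 to 102 in NT mice. Cortical excitatory markers overlapped between genotypes, with sums of 118 to 130 in R6/2 and 121 to 138 in NT m6A cortex. GABA interneuron sums overlapped only narrowly in TDP-43 cortex, with 2.16 to 7.89 in R6/2 and 7.77 to 16.7 in NT mice. Oligodendrocyte sums overlapped in m6A striatum, with 88.3 to 121 in R6/2 and 90.9 to 121 in NT mice. Vascular markers had no enriched TDP-43 cluster. The part of cell composition in the values of Arc and the Homer genes was not tested.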

How the data were processed

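The authors aligned eCLIP reads to mm10 and called clusters in each IP with CLIPper. The deposited files list, per cluster, the −log10 p and the log2 fold of IP over input, and no read counts. Clusters were given to GENCODE vM21 genes by midpoint and strand, and those with p of 0.001 or less were counted. Genes with at least 2 enriched clusters in 50% of libraries were tested with limma 3.58.1 (R 4.3.3, trend) on log2(number / median-ratio size factor + 0.5), with sex as covariate, and called at adjusted p under 0.05 (Benjamini-Hochberg). Single values were tested by exact permutation within sex (Python 3.11.15). Depth in reads is unknown, so that the number of enriched clusters stands for yield. Sequences were read from the GRCm38 reference, whose chromosome lengths hold every cluster. The scripts were tested on simulated data. The 4 genes and the lists were chosen with earlier results of these data known. In each comparison up to 3 called genes of each list, with the largest change, could be named. Of these, 1 gene is not reported here, and the lists were not described between regions of NT mice. Inputs of 70 samples were used only through the deposited fold. Replicates were numbered per sex, and whether numbers or regions share mice is not given in the sources used here.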

Additional observations from a re-analysis of the deposited data

Results flagged for a closer look

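In groups of 8 libraries, the highest or lowest value was compared with its neighbours for each gene and for the Homer1 ratio, and 4 of 31 groups had a library far from the rest, where chance gives about 1 in 20. R6/2 female 2 had 9.47 normalized Arc clusters in TDP-43 cortex, against 0 to 3.66 in the other 7 R6/2 libraries. R6/2 male 4 had 0.0 Homer1 clusters in TDP-43 striatum, against 2.23 to 4.1 in the others, and is a library with under 10000 enriched clusters. Homer2 in TDP-43 striatum stood out in R6/2 male 3 with 0.722 and in NT female 1 with 1.51, which are 1 and 2 clusters. There 7 of 8 R6/2 and 6 of 8 NT libraries were at 0, so that the rate of 1 in 20 does not apply to these groups.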

How the results depend on the processing

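Differences below are log2, R6/2 minus NT or ASO minus PBS. At the study's thresholds TDP-43 striatum Homer1 was 0.32, cortex Arc -1.39 and Homer1 -0.13, m6A Homer1 -1.41 in striatum and -0.84 in cortex, and after ASO Arc -0.70 and Homer1 0.024, none called. In all listed clusters TDP-43 Homer1 was -0.34 in striatum (adjusted p = 0.0157) and -0.42 in cortex, and Arc in NT striatum against NT cortex -0.20, or -1.14 when scaled by totals. By bases covered, Arc was -5.68 in TDP-43 cortex, -0.11 in m6A striatum and -0.13 in m6A cortex, none called. In females alone Arc was -1.75 and Homer1 -0.79 in TDP-43 cortex, Arc -0.69 and Homer3 -0.21 in m6A striatum, Arc -0.68 and Homer1 -0.49 in m6A cortex, and the normalized Arc difference in TDP-43 striatum -2.21 (exact permutation p = 0.143). In males alone m6A striatum Arc was -0.49 and Homer1 -0.42, and m6A cortex Homer1 -0.42, none called. TDP-43 striatum Homer1 was 0.16 without the 5 R6/2 libraries whose intronic share reached 30%, and -0.80 without the 3 under 10000 enriched clusters, an alternative chosen after seeing the data. At p of 1e-10 or less, ASO Arc was 0.33 and Homer1 -0.39, not called. The Homer1 ratio was -0.58 in listed clusters and -0.20 at the study's thresholds in TDP-43 striatum, and -2.45 in listed clusters and 0.73 with 2 added (adjusted p = 0.0327) in TDP-43 cortex. The cause of these changes was not tested.

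Leaving out 1 library gave -0.096 to 0.091 for Homer3 in m6A striatum, 0.13 to 0.19 for Arc and -0.31 to -0.21 for Homer1 after ASO (Arc kept its call only without PBS mouse 2, and Homer1 only without PBS mouse 2 or ASO mouse 2), and ratios of 1.21 to 1.74 in TDP-43 striatum and 0.67 to 1.20 in TDP-43 cortex. The TDP-43 ratio passed the threshold in striatum without NT male 1, NT female 3 or R6/2 female 3, and in cortex without R6/2 male 1 or R6/2 female 3. The R6/2 calls of Arc, Homer1 and Homer2 and the m6A ratios each kept their call with any 1 library left out.

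Same-numbered mice did not deviate together in every pair (correlations -0.45 to 0.46), so the numbers were not taken to pair them. With a replicate block, ASO Arc was 0.16 (adjusted p = 0.0836) and Homer1 -0.25 (adjusted p = 0.0732), and no R6/2 call of the 4 genes changed. It called 128 genes in TDP-43 cortex, against 279 without it, and 1949 after ASO, against 3017.

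Genes called in TDP-43 striatum numbered 318, against 1231 in listed clusters, 72 at the study's thresholds, 80 at the stricter p, 106 by bases, 3 in males and 27 without the libraries high in introns. TDP-43 cortex gave 101 at the study's thresholds, 163 at the stricter p, 108 by bases, 94 in males and 35 in females. m6A striatum gave 915, against 513 listed, 3 at the study's thresholds, 604 by bases, 532 without sex, 243 in males and 285 in females, and m6A cortex 549, against 290, 3, 85 in males and 84 in females. After ASO 5 were called at the study's thresholds and 1943 at the stricter p. NT striatum against NT cortex in m6A gave 1787, or 1136 listed. Listed clusters after ASO could not be fitted, being equal within a treatment. Read depth is unknown, and a cluster count also follows how a peak is split.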
